A study of Rattus norvegicus with 24 samples.

Results

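The natriuretic peptide genes Nppa and Nppb were followed in left ventricles of Dahl salt-sensitive rats. Every probe set that the platform annotation assigned to Nppa or Nppb was taken: 5 of the 8799 probe sets on the Affymetrix rat array, for 2 of 4737 genes named there, with 4 for Nppa (E00698cds_s_at, E00775cds_s_at, E00903cds_s_at and X01118_at) and 1 for Nppb (rc_AA799498_at). All 5 were bright enough to be tested. Each gene is led here by its brightest probe set, which for Nppa is E00698cds_s_at, and values are deposited linear intensities unless a log2 difference is named. The Dahl salt-sensitive rat is an inbred strain that develops hypertension on a salty diet. Rats reached the laboratory at 5 weeks of age, and treatments started at 6 weeks of age. The high salt groups ate chow with 6% NaCl, the exercise groups ran on a treadmill every day for 6 weeks, and the controls were sedentary animals of the same age on normal chow. The treadmill load was raised over 3 weeks and then held at 16 m/min on a 5 degree incline for 90 min per day. The titles gave 3, 6 and 15 weeks, without saying from when these weeks were counted, and they listed no exercise group at 15 weeks. The series set treadmill running as physiologic hypertrophy beside the salt diet as pathologic hypertrophy, and all of its rats shared the salt-sensitive background.

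The table held 24 columns but 22 distinct arrays. Arrays 2 and 3 of exercise at 3 weeks repeated arrays 2 and 3 of control at 3 weeks in every value, so the group of these arrays is not known. The distinct arrays were thus 3 high salt, 1 exercise, 1 control and 2 under both labels at 3 weeks, 3 each of high salt, exercise and control at 6 weeks, and 3 each of high salt and control at 15 weeks. For the comparison of high salt at 3 weeks, the 4 arrays without a salt diet (exercise, control and the pair under both labels) were read together as the non-salt arrays. Whether each array stands for its own animal is not stated in the labels, and p-values therefore reflect the spread among arrays, which may be technical. RNA quality differed between groups: the ratio of the 3' to the 5' GAPDH probe sets, which rises as RNA breaks down, was 1.58, 2.48 and 3.99 in the 6-week controls and 1.09, 1.52 and 1.58 in the 15-week controls, against 0.989 to 1.18 in the 16 other distinct arrays. Ventricular myocyte markers (7 of 8 on the array, among them Myl2, Tnnt2 and Tnni3) were bright on all arrays, with a summed intensity of 159316 to 267188, and none was called in any comparison with controls.

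Nppa encodes the precursor of atrial natriuretic peptide and Nppb that of B-type natriuretic peptide. Both hormones are released by heart muscle under stretch. They act on the receptor Npr1, a guanylyl cyclase whose product cGMP relaxes vessels and promotes the loss of sodium and water in the kidney. The atria hold most Nppa in the healthy adult heart. The ventricle expresses it in fetal life, and ventricular Nppa and Nppb are long-used markers of hypertrophy and pressure load. In RefSeq's assembly GRCr8 the genes lay in tandem on chromosome 5, Nppb at chr5:163699955-163701314 and Nppa at chr5:163712184-163713493, with 10869 bases and 0 annotated genes between them.

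The promoters of the pair are shown because the genes neighbour each other and yet separated at 15 weeks in the values that follow. The sequences are RefSeq's for GRCr8, from the plus strand, and come from a reference rat, not from the Dahl rats studied. Capitals mark matches, on either strand, to the GATA motif GATAA, the M-CAT motif CATTCC and the NKE motif CAAGTG, which are bound by GATA, TEAD and Nkx2 factors.
Nppa, chr5:163711934-163712183: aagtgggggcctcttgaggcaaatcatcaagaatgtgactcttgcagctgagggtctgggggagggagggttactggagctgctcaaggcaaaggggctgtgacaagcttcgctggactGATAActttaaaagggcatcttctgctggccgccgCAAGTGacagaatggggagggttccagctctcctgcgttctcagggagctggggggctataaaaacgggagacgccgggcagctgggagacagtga
Nppb, chr5:163699758-163699954: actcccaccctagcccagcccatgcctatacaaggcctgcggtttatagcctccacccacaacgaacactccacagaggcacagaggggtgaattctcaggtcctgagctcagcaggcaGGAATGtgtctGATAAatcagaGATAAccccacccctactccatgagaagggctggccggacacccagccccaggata
Positions count back from the start used in RefSeq's promoter table, which for Nppb lies inside the gene record, so its run is shorter and stops 1 base before that record, at 197 bases against 250 for Nppa. Within the 250 bases before the start, Nppa held GATAA at -131, as part of TGATAA, and CAAGTG at -96. Nppb held GATAA at -120, again as part of TGATAA, and also at -109 and -57, of which the last crosses into the gene record and is not in capitals. Nppb also held GGAATG at -131, which reads CATTCC on the other strand. Over 33469 rat promoter windows of the same length, 23.5% held GATAA, 7.97% held TGATAA, 12.1% held CATTCC and 11.7% held CAAGTG, on either strand. The AP-1 motif TGACTCA, found in 4.05% of the windows, and the serum response factor motif known as the CArG box, found in 1.50%, had no match in either window. TATAAA stood at -39 in Nppa, and its reverse complement at -208 in Nppb, beside 12.9% of all windows with a match. Each match is a description of letters in these windows.

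**Figure D1:**
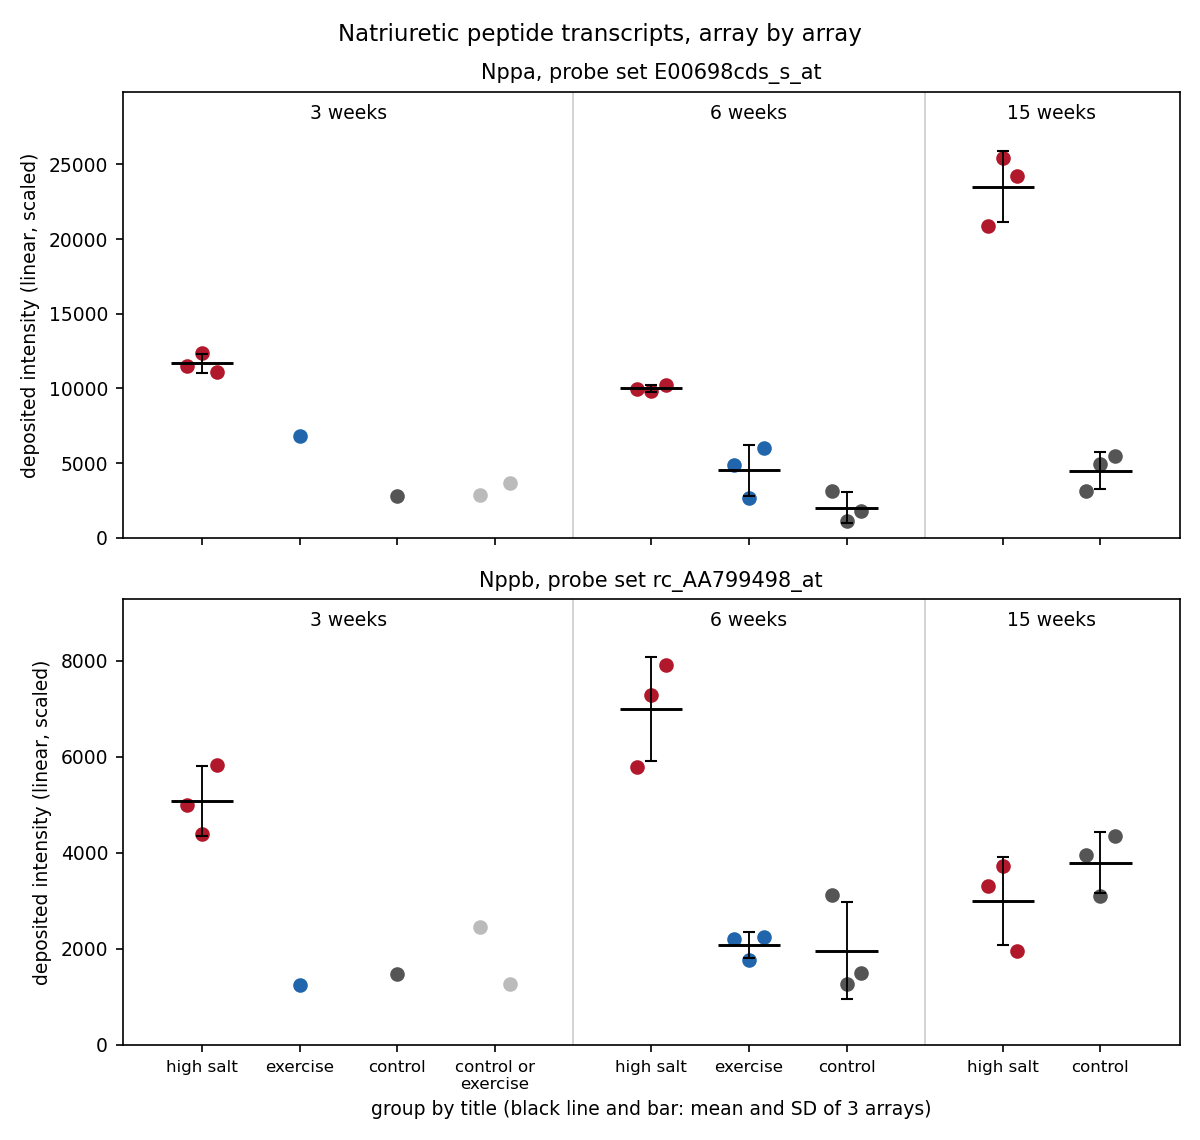
Deposited intensity (linear axis from 0) of Nppa (upper panel, probe set E00698cds_s_at) and Nppb (lower panel, probe set rc_AA799498_at) in each distinct array, by title group within 3, 6 and 15 weeks. Points are arrays, black lines and bars are the mean and SD of 3 arrays, and the light grey points are the 2 arrays deposited under both labels. Nppa was highest in the 15-week high salt arrays, at 20861 to 25454, whereas Nppb in the same arrays lay at 1959 to 3723.

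At 3 weeks high salt ventricles carried more Nppa and Nppb transcript than ventricles without the salt diet. Nppa was at 11501, 12399 and 11122 in the high salt arrays. It was at 6819 in the exercise array, 2806 in the control array, and 2847 and 3657 in the arrays under both labels. Every high salt array lay above every non-salt array, and among the non-salt arrays the exercise array was the highest. Nppb was at 4992, 4392 and 5839 in high salt, against 1249 in exercise, 1479 in control, and 2458 and 1265 under both labels. The groups did not overlap for Nppb either, and here the exercise array was the lowest. The share of all probe sets whose groups lay apart in this way is not given, here or in later comparisons.

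Against the non-salt arrays Nppa rose by 1.62 ± 0.28 on the log2 scale (SE; 3.08-fold; 3 against 4 arrays) and Nppb by 1.68 ± 0.28 (3.20-fold). Both had an adjusted p of 0.014 by limma with Benjamini-Hochberg adjustment over 6555 probe sets. All 5 natriuretic peptide probe sets were called as higher, where 0.107% of all tested probe sets were called in that direction. They held ranks 1, 2, 3, 4 and 7 by p-value. In all, 7 probe sets rose and 1 fell, and the others were those of Acta1 (0.93 ± 0.16), Fkbp1a (0.83 ± 0.15) and Cbr1 (-0.80 ± 0.16), of which the last 2 were chosen after their values were seen. Acta1 encodes skeletal alpha-actin of the fetal ventricle, Fkbp1a a binding protein of the ryanodine receptor, and Cbr1 a carbonyl reductase. GAPDH ratios lay between 0.994 and 1.18 in all 3-week arrays, and a fit with that covariate gave 1.60 and 1.63. The 3' to 5' ratio of beta-actin did separate the groups, at 1.04 to 1.06 in high salt against 1.18 to 1.32 in the non-salt arrays. That of hexokinase was 2.01 to 2.17 in high salt against 1.93 to 3.16. Neither was used as a covariate. With 1 array left out, the difference stayed between 1.48 and 1.91 for Nppa and between 1.57 and 1.89 for Nppb, and all such fits kept the direction. The call did not hold each time: Nppa kept an adjusted p under 0.05 in 2 of 7 such fits and Nppb in 4 of 7. Nppa lost it without the control array (1.48), without array 2 of both labels (1.49), and without high salt arrays 1 (1.63), 2 (1.58) or 3 (1.66). Nppb lost it without high salt arrays 1 (1.68), 2 (1.77) or 3 (1.57).

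Against the control array alone the 3-week high salt differences were 2.04 ± 0.43 for Nppa and 1.74 ± 0.39 for Nppb (adjusted p = 0.21 for both, limma). The exercise array stood 1.27 ± 0.52 above the control array for Nppa and -0.24 ± 0.48 from it for Nppb (adjusted p = 1 for both, limma), with 1 array on each side. In that comparison the arrays under both labels would change the groups, so no exercise effect at 3 weeks is given.

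At 6 weeks both genes were again higher in high salt than in control ventricles. Nppa was at 9981, 9800 and 10216 in high salt, against 3130, 1109 and 1820 in control. Nppb was at 5792, 7294 and 7911 in high salt, against 3123, 1274 and 1500 in control. The groups were apart for both genes, and in both the highest control was array 1, which also had the lowest GAPDH ratio of the 3 controls, at 1.58. Nppa rose by 2.41 ± 0.30 (5.30-fold; adjusted p = 0.00013) and Nppb by 1.91 ± 0.28 (3.76-fold; adjusted p = 0.00033, limma). All 5 probe sets were called, beside 6.62% of all tested probe sets called as higher and 7.72% as lower. The other Nppa probe sets rose by 2.61 to 2.84.

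Markers of other cell types also differed from the 6-week controls, in high salt and in exercise alike. Of 5 smooth muscle markers 1 rose and 3 fell in high salt (median -0.91, against -0.15 over all tested probe sets), and 1 rose and 3 fell in exercise (median -0.95, against -0.12). Leukocyte markers (5 of 6 on the array) summed to 5592 to 7903 in high salt and 4998 to 6922 in exercise, against 4028 to 4265 in control. Of these 5, 1 rose and 1 fell in high salt (median 0.08), and 1 rose in exercise (median -0.11). Adipocyte markers (3 of 4) summed to 1656 to 2305 in high salt and 2172 to 2708 in exercise, against 3094 to 7253 in control. Of these 3, 1 fell in high salt (median 0.34) and 1 in exercise (median -0.15). Neither sum overlapped with control, but a sum follows its brightest markers, and the medians did not all go its way. The calls stood beside 6.62% of all tested probe sets called as higher and 7.72% as lower in high salt, and 4.45% and 3.36% in exercise. At 3 weeks the leukocyte sum was 5465 to 5868 in high salt, against 4327 to 4980 over the non-salt arrays, with no marker called. The red blood cell sum (3 of 5 markers) was then 20520 to 23304 in high salt, against 13589 to 15758 over the non-salt arrays. None of these markers was called either (median 0.41, against -0.06 over all tested probe sets). In whole ventricle, fewer cells of a type and less RNA per cell cannot be told apart. The part of these cells in the Nppa and Nppb levels was not tested.

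The 6-week high salt increase was less firm with the GAPDH ratio in the fit. It was smaller for the lead Nppa probe set and Nppb, and larger at E00775cds_s_at (3.01) and X01118_at (2.92). After the GAPDH ratio was added to the model as a covariate, the lead Nppa probe set differed by 2.06 ± 0.50 (adjusted p = 0.15) and Nppb by 1.11 ± 0.41 (adjusted p = 0.40, limma). The other 3 Nppa probe sets passed with the covariate, at 2.65 to 3.01 (adjusted p = 0.042 to 0.043, limma). In that fit 13 probe sets were called in all, against 940 without the covariate. When the high salt arrays were set against the controls of the other weeks in place of the 6-week controls, Nppa rose by 1.34 ± 0.28 (adjusted p = 0.046) and Nppb by 1.21 ± 0.26 (adjusted p = 0.047, limma). The highest GAPDH ratios lay in the 6-week controls themselves, so RNA quality and group cannot be told apart in the covariate fit. The part of RNA quality in the size of the 6-week difference was not tested beyond these fits.

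Treadmill exercise at 6 weeks went with an increase of Nppa and not with a called change of Nppb. Nppa was at 4871, 2679 and 5998 in exercise, against 3130, 1109 and 1820 in control, so that exercise array 2 lay below control array 1. Nppb was at 2207, 1762 and 2252 in exercise, against 3123, 1274 and 1500 in control, and all exercise arrays lay within the range of the controls. Nppa rose by 1.19 ± 0.30 (2.28-fold; adjusted p = 0.019), and E00775cds_s_at and E00903cds_s_at rose by 1.22 and 1.09. X01118_at differed by 1.01 ± 0.32 and missed the threshold (adjusted p = 0.056, limma). The 3 calls stood beside 4.45% of all tested probe sets called as higher and 3.36% as lower. Nppb differed by 0.18 ± 0.28 (95% interval -0.40 to 0.76; adjusted p = 0.74, limma).

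The exercise call for Nppa rested on the 6-week controls. Against the controls of the other weeks the lead probe set differed by 0.13 ± 0.28 (adjusted p = 0.97), and with the GAPDH covariate by 0.82 ± 0.52 (adjusted p = 0.80, limma), where none of the 4 Nppa probe sets passed. Without control array 2 the difference was 0.83, without control array 3 it was 1.18, and without exercise arrays 1 or 3 it was 1.10 or 0.95, and each of these missed the threshold. The exercise mean of 4516 ± 1688 was close to the 15-week control mean of 4506 ± 1233 (SD, n = 3 each).

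High salt and exercise at 6 weeks can be compared without the 6-week control mean, although those controls enter the shared spread estimate. The GAPDH ratios of the 6 high salt and exercise arrays lay between 0.989 and 1.17. Their beta-actin 3' to 5' ratios were 1.21 to 1.62 in high salt and 1.02 to 1.39 in exercise. High salt arrays were higher than exercise arrays for both genes with no overlap, a description of these arrays without a share over all probe sets. Nppb rose by 1.73 ± 0.28 (3.32-fold; adjusted p = 0.030, limma) and was the only probe set of 6555 called as higher, which is 0.0153%, and none was called as lower. Nppa differed by 1.22 ± 0.30 at the lead probe set (95% interval 0.59 to 1.85; adjusted p = 0.20) and by 1.60 to 1.62 at the others (adjusted p = 0.074 to 0.11, limma). The Nppb call is close to the threshold. It was lost without exercise arrays 2 (1.62) or 3 (1.79) and without high salt arrays 2 (1.70) or 3 (1.64), and with quantile normalization, where 1.69 had an adjusted p of 0.057 by limma.

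**Figure D2:**
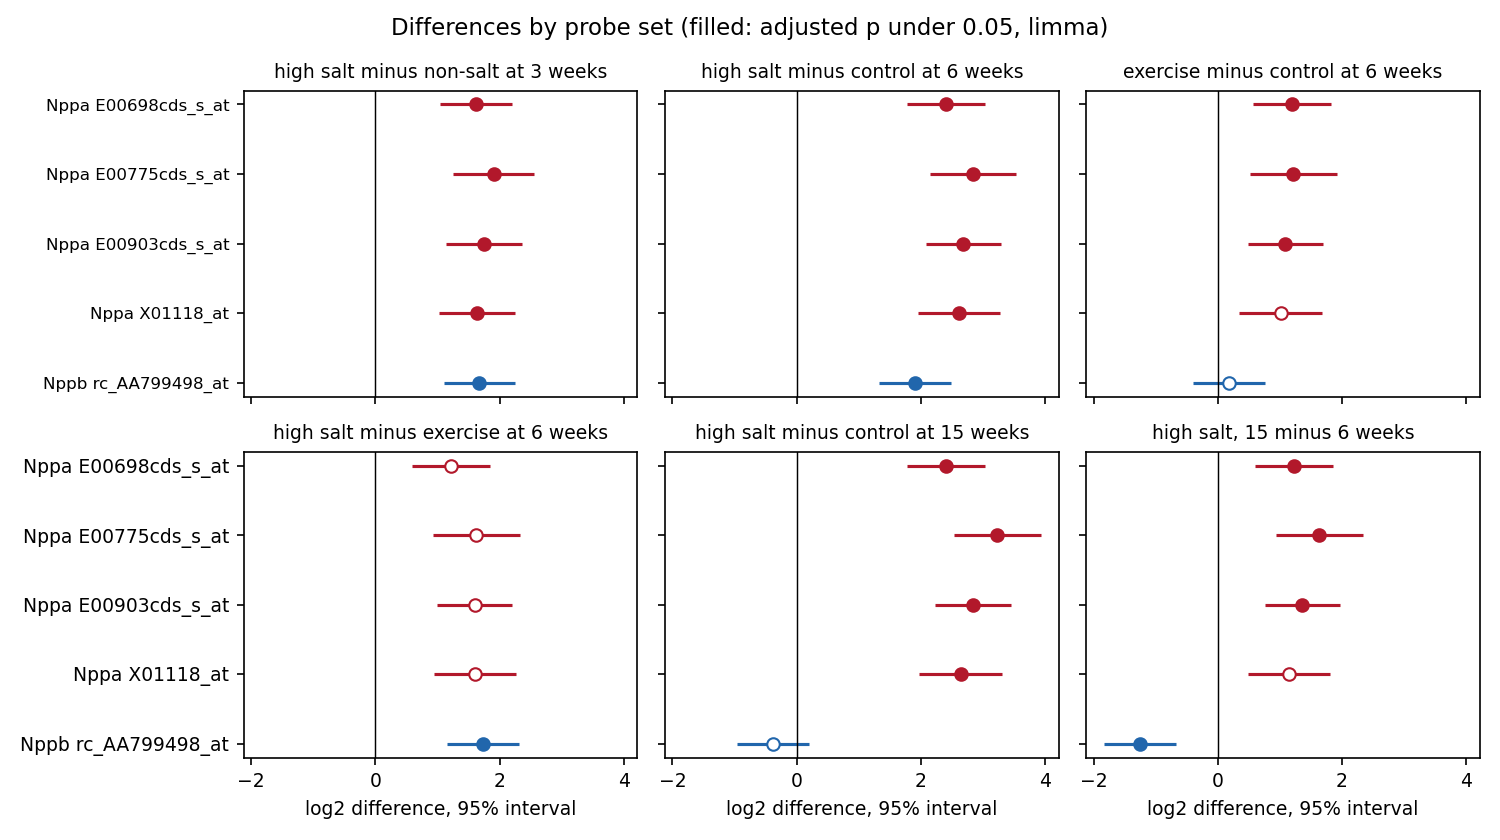
Log2 differences (horizontal axes) with 95% intervals for the 4 Nppa probe sets (red) and the Nppb probe set (blue) in 6 comparisons from the limma fits. Filled points passed an adjusted p under 0.05. The Nppb point lay at 1.91 in high salt minus control at 6 weeks and at -0.37 at 15 weeks, while Nppa at E00698cds_s_at lay at 2.41 in both.

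At 15 weeks Nppa was higher in high salt than in control ventricles, and Nppb was not called. Nppa was at 20861, 25454 and 24219 in high salt, against 3115, 4937 and 5466 in control. The lowest high salt array thus lay far above the highest control. Nppb was at 3314, 3723 and 1959 in high salt, against 3953, 3095 and 4348 in control, and the groups overlapped. Nppa rose by 2.41 ± 0.30 (5.31-fold; adjusted p = 6e-05, limma), and the other probe sets rose by 2.64 to 3.23, up to 9.39-fold. These 4 calls stood beside 3.28% of tested probe sets called as higher and 3.87% as lower. Nppb differed by -0.37 ± 0.28 (95% interval -0.95 to 0.20; adjusted p = 0.52, limma), an interval that leaves out the 1.91 seen at 6 weeks.

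Other measures moved in the 15-week high salt arrays as well. Fibroblast markers, all 7 of them on the array, summed to 11117 to 21427 in high salt, against 25867 to 34948 in control, and 4 fell, with Col3a1, a fibrillar collagen, lowest at -3.04 ± 0.32. Red blood cell markers (3 of 5 on the array) summed to 31916 to 39002 in high salt, against 18166 to 24499 in control, and 2 of them rose. Leukocyte markers summed to 2682 to 3856 in high salt, against 4289 to 4752 in control, and 1 of 5 fell. Adipocyte markers summed to 1642 to 1931 in high salt, against 2149 to 2579 in control, with none called. The calls against control stood beside 3.28% of all tested probe sets called as higher and 3.87% as lower. Within high salt from 6 to 15 weeks 4 of 7 fibroblast markers and 1 of 5 leukocyte markers fell, beside 1.53% of all called as lower. Over the same weeks 3 of 3 tested red blood cell markers rose, beside 1.63% of all called as higher. The part of cell makeup in the Nppa and Nppb levels was not tested. With the GAPDH covariate the 15-week differences were 2.32 ± 0.31 for Nppa (adjusted p = 0.00015) and -0.57 ± 0.26 for Nppb (adjusted p = 0.22, limma).

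Atrial tissue carries much Nppa, so atrial markers were read beside it. Of 10 listed markers 6 were on the array (Myl4, Myl7, Pam, Kcna5, Nr2f2 and Nr2f1), and none of these was at 0 on every array. Read at their brightest probe sets, 1 of the 6 was called, Pam, as higher in high salt at 6 weeks, beside 6.62% of all tested probe sets. Other Pam probe sets also rose at 15 weeks, when Nppa was highest: E03428cds_s_at was at 9826 to 12405 in high salt, against 3120 to 6175 in control (1.49 ± 0.29; adjusted p = 0.0027, limma). The probe set rc_AA799575_f_at was at 5065 to 8050 in high salt, against 1876 to 3488 in control (1.25 ± 0.26; adjusted p = 0.0055, limma), and it rose by 1.20 within high salt from 6 to 15 weeks (adjusted p = 0.011, limma). Pam, an amidating enzyme that is abundant in atrial granules, made up most of the summed intensity, which at 15 weeks was 15743 to 22386 in high salt and 12894 to 12944 in control. Without Pam the 15-week sum was 612 to 811 in high salt and 610 to 839 in control, overlapping ranges. At 6 weeks the sum without Pam was 587 to 753 in high salt, 608 to 654 in exercise and 734 to 761 in control. At 3 weeks it was 498 to 625 in high salt, against 647 to 806 over the non-salt arrays. The regulatory light chain Myl7 ran at 313 to 437 in 15-week high salt, against 309 to 474 in 15-week controls (rc_AA891242_at). Its other probe set, rc_AA891242_g_at, ran at 288 to 631 in high salt against 239 to 335 in control, and Myl4 at 83.0 to 189 against 59.9 to 146 (X51531cds_g_at). The other Myl4 probe set, X51531cds_at, was at 68.6 to 215 in high salt, against 21.0 to 74.4 in control, and differed by 1.09 ± 0.41 (adjusted p = 0.12, limma). The part of atrial tissue in the Nppa level was not tested.

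Within the high salt groups Nppa and Nppb took different courses over the weeks. Nppa averaged 11674 ± 656 at 3 weeks, 9999 ± 208 at 6 weeks and 23511 ± 2377 at 15 weeks (SD, n = 3 each). Nppb averaged 5074 ± 727, 6999 ± 1090 and 2999 ± 923 at the same weeks. Between 3 and 6 weeks neither gene was called, with -0.22 ± 0.30 for Nppa and 0.46 ± 0.28 for Nppb (adjusted p = 1 for both, limma), where 0.0763% of tested probe sets were called in either direction. From 6 to 15 weeks Nppa rose by 1.23 ± 0.30 (2.34-fold; adjusted p = 0.026), where 1.63% of tested probe sets were called as higher. Over the same interval Nppb fell by 1.25 on the log2 scale (SE 0.28; adjusted p = 0.012, limma), where 1.53% were called as lower. No array of 1 week overlapped the other for either gene. The GAPDH ratio was 1.04 to 1.17 in these 6 arrays, and with it as a covariate the differences were 1.24 and -1.23.

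The call for Nppa from 6 to 15 weeks in high salt was lost when any 1 of the 6 arrays was left out, with differences of 1.17 to 1.31 and adjusted p-values of 0.055 to 0.089 (limma). The probe sets E00775cds_s_at and E00903cds_s_at rose by 1.63 (adjusted p = 0.0066) and 1.36 (adjusted p = 0.0090), and X01118_at differed by 1.15 (adjusted p = 0.055, limma). The fall of Nppb was lost without 15-week array 3 (-0.97), the lowest of its group, and without 6-week array 3 (-1.16), the highest of its group. From 3 to 15 weeks in high salt the lead Nppa probe set differed by 1.004 ± 0.30 (adjusted p = 0.063), while the other 3 rose by 1.16 to 1.53, beside 2.11% of tested probe sets called as higher. Nppb differed by -0.79 ± 0.28 (adjusted p = 0.12, limma) over these weeks.

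In the controls both genes stood higher at 15 than at 6 weeks without passing the threshold. The differences were 1.22 ± 0.30 for Nppa (adjusted p = 0.056) and 1.03 ± 0.28 for Nppb (adjusted p = 0.077, limma), and 0.458% of tested probe sets were called as higher. GAPDH ratios were highest in the 6-week controls, as given above, and with the ratio as a covariate the differences were 0.97 and 0.45. Without 6-week control array 1 both genes passed, at 1.60 and 1.42.

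The high salt effect on Nppb differed between weeks. The high salt minus control difference of Nppb was lower at 15 than at 6 weeks by a log2 value of -2.28 ± 0.39 (adjusted p = 0.0043, limma), and 0.748% of tested probe sets were called as lower in that test. Every fit that left out 1 of the 12 arrays kept the call, with values from -2.67 to -2.01. For Nppa the same difference was 0.00 ± 0.43 (95% interval -0.89 to 0.89; adjusted p = 1, limma). With the GAPDH covariate the Nppb value was -1.68 ± 0.43 and missed the threshold (adjusted p = 0.076, limma). The same test against the 3-week non-salt arrays was added after seeing the data. The 6-week control mean does not enter its difference, but those controls enter the shared spread estimate. It gave -2.05 ± 0.40 for Nppb (adjusted p = 0.0092) and 0.79 ± 0.41 for Nppa (adjusted p = 0.48, limma). Here 1.28% of tested probe sets were called as lower, and the 15-week arrays are shared with the first test. Part of the Nppb value lies on the side without salt, with means of 1613 in 3-week non-salt arrays and 3799 in 15-week controls. Within high salt from 3 to 15 weeks Nppb differed by -0.79 ± 0.28 (adjusted p = 0.12, limma). The 15-week controls had GAPDH ratios of 1.09, 1.52 and 1.58. With the covariate this second Nppb value was -2.195 ± 0.37 (adjusted p = 0.0023, limma).

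The balance of the genes within an array was read as well. The log2 intensity of Nppa minus that of Nppb was 2.64, 2.76 and 3.60 in the 15-week high salt arrays, against -0.34, 0.67 and 0.33 in the 15-week controls. At 6 weeks it was 0.78, 0.42 and 0.37 in high salt, 1.13, 0.59 and 1.40 in exercise, and 0.0032, -0.19 and 0.27 in control. At 3 weeks it was 1.20, 1.49 and 0.92 in high salt, 2.41 in exercise and 0.91 in control. The 2 arrays under both labels were left out of this reading. Their log2 intensities were 11.50 and 11.85 for Nppa, and 11.29 and 10.35 for Nppb. The balances are differences between unlike probe sets, so their changes between groups can be read and their sign cannot. Over the 6- and 15-week arrays the balance was 1.64 higher in high salt than in control (exact two-sided permutation within weeks, p = 0.005, the smallest that 400 arrangements can give). The shift of the high salt effect between these weeks was 2.29 (exact two-sided permutation p = 0.075). Within 1 week or 1 diet an exact permutation of 3 arrays against 3 cannot go below p = 0.1. That smallest exact permutation p was reached by high salt against control at 15 weeks (2.78) and at 6 weeks (0.50), by exercise against control at 6 weeks (1.01), and within high salt by 15 against 6 weeks (2.48), 15 against 3 weeks (1.80) and 6 against 3 weeks (-0.68).

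**Figure D3:**
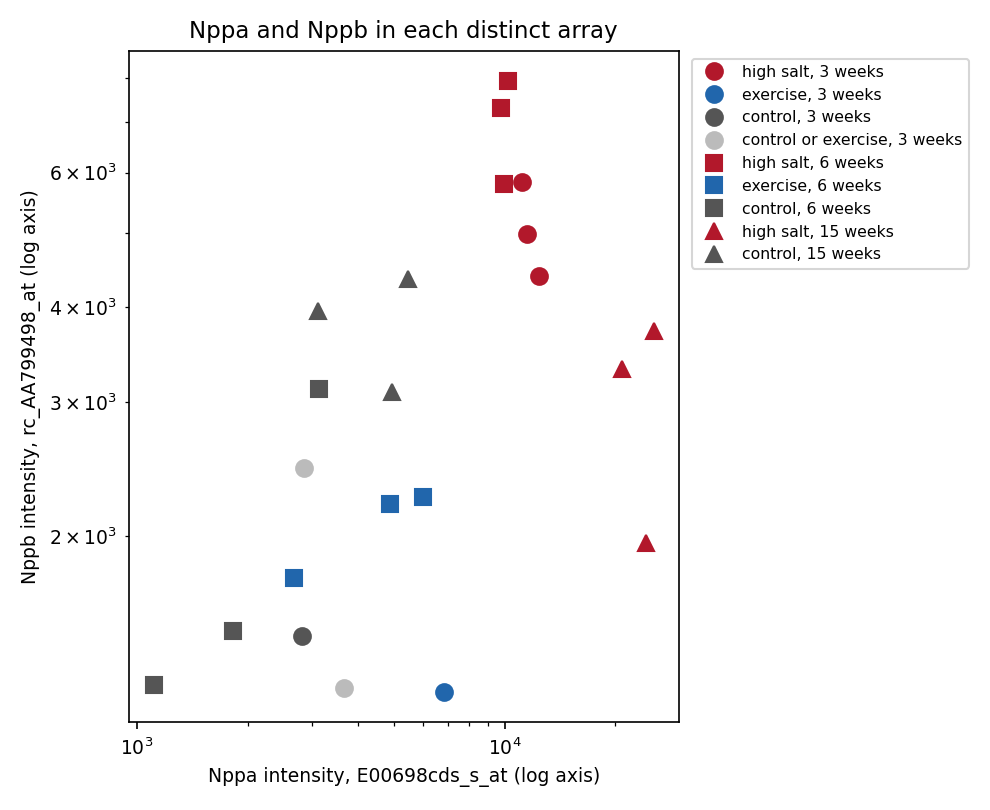
Nppa intensity (horizontal log axis, E00698cds_s_at) against Nppb intensity (vertical log axis, rc_AA799498_at) in each of the 22 distinct arrays, with colour for the treatment and marker shape for the week. The 15-week high salt arrays (red triangles) lay at the highest Nppa, 20861 to 25454, and at Nppb of 1959 to 3723, while the 6-week high salt arrays (red squares) lay at Nppa near 9999 and Nppb of 5792 to 7911.

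In order of group means with 3 arrays, Nppa ran at 23511 in high salt at 15 weeks, 11674 in high salt at 3 weeks, 9999 in high salt at 6 weeks, 4516 in exercise at 6 weeks, 4506 in control at 15 weeks and 2020 in control at 6 weeks. No array overlapped between the neighbours high salt at 15 and 3 weeks, high salt at 3 and 6 weeks, or high salt and exercise at 6 weeks, but none of these pairs was called at the lead probe set. Arrays overlapped between exercise at 6 weeks and control at 15 weeks, and between control at 15 and at 6 weeks. For Nppb the order was 6999 in high salt at 6 weeks, 5074 in high salt at 3 weeks, 3799 in control at 15 weeks, 2999 in high salt at 15 weeks, 2073 in exercise at 6 weeks and 1966 in control at 6 weeks. Arrays of neighbouring groups overlapped along that order, except between high salt at 3 weeks, whose lowest array was at 4392, and control at 15 weeks, whose highest was at 4348. High salt was thus at the top for Nppa at every week, whereas for Nppb the 15-week high salt group stood among the others.

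The spread between arrays was itself uneven. For Nppa at the lead probe set the coefficient of variation was 5.62% in high salt at 3 weeks, 2.08% in high salt at 6 weeks and 10.1% in high salt at 15 weeks, against 27.4% in the 15-week controls, 50.8% in the 6-week controls and 37.4% in exercise at 6 weeks. The 2.08% held for the lead probe set alone, since the other 3 Nppa probe sets had 10.3%, 18.3% and 26.3% in the same 6-week high salt arrays. For Nppb it was 14.3%, 15.6% and 30.8% in high salt at 3, 6 and 15 weeks, against 16.9% and 51.3% in the 15- and 6-week controls and 13.1% in exercise. The 6-week controls thus had the widest relative spread of both genes among the groups of 3.

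The 4 Nppa probe sets told the same order of high salt and control at each week. Over the 20 arrays of known group, the other 3 correlated with the lead set at Pearson r of 0.97 to 0.99, and they measure the same transcript on the same arrays. At 15 weeks in high salt they averaged 28381 ± 2782 (E00775cds_s_at), 22647 ± 1578 (E00903cds_s_at) and 19026 ± 1285 (X01118_at), against 3105 ± 1051, 3230 ± 971 and 3072 ± 714 in control (SD, n = 3 each). At 6 weeks E00775cds_s_at was at 12046, 8475 and 7358 in high salt, 3058, 1923 and 4227 in exercise, and 1865, 632 and 1580 in control. The lead probe set had the smallest log2 difference of the 4 in high salt against control at both 6 and 15 weeks.

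Among the other genes listed for natriuretic peptide signalling, each read at its brightest probe set, Pam rose in high salt at 6 weeks. The other calls against controls were falls. Of 23 listed genes for ligands, receptors, processing, breakdown and cGMP effectors, 18 were on the array and 16 were tested. In high salt against non-salt at 3 weeks none was called (median log2 difference -0.02, against -0.06 over all tested probe sets). In high salt against control at 6 weeks 1 rose and 3 fell of the 16, beside 6.62% of all tested probe sets called as higher and 7.72% as lower (median -0.22, against -0.15 over all). In exercise against control at 6 weeks 0 rose and 2 fell, beside 4.45% and 3.36% of all (median -0.37, against -0.12), and in high salt against exercise none was called. In high salt against control at 15 weeks 0 rose and 4 fell of the 16, beside 3.28% of all called as higher and 3.87% as lower (median -0.20, against -0.04).

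Among ligands and receptors, the third natriuretic peptide gene Nppc, which encodes the C-type peptide of vessel wall, was dim and was not called with either probe set. Its D90219_at intensity was 18.3 to 124 in 15-week high salt, against 61.2 to 113 in 15-week controls. Npr1, the receptor of both cardiac hormones, was at 390 to 540 in 15-week high salt, against 532 to 846 in control (J05677mRNA_s_at), overlapping by the highest and lowest arrays. Its log2 differences were -0.40 ± 0.22 at 3 weeks, -0.68 ± 0.25 at 6 weeks and -0.65 ± 0.25 at 15 weeks in high salt (adjusted p = 0.75, 0.070 and 0.13, limma), and the other 2 Npr1 probe sets were not called either. Npr2, the receptor of the C-type peptide, fell by 0.76 on the log2 scale in exercise at 6 weeks (SE 0.23; adjusted p = 0.043, limma), with intensities of 235 to 254 in exercise and 350 to 524 in control. Npr3, which clears the peptides, differed by 0.28 ± 0.40 in high salt against control at 15 weeks (adjusted p = 0.79, limma), and its second probe set was too dim to test.

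Among processing enzymes, Corin, which cuts the Nppa precursor at the cell surface, had 0 probe sets on the array under that name. Furin, which cuts the Nppb precursor, was not called, with 0.37 ± 0.20 at 15 weeks and -0.36 ± 0.20 at 6 weeks in high salt against control (adjusted p = 0.33 and 0.25, limma). Pam, listed as an amidating enzyme of atrial granules, rose by 0.63 ± 0.19 in high salt at 6 weeks (adjusted p = 0.028, limma) at its brightest probe set. Its other tested probe sets disagreed in size. E03428cds_s_at rose by 2.06 in high salt and by 1.92 in exercise at 6 weeks, and 2 of the other Pam sets rose at 15 weeks as given above. Dpp4, a peptidase that trims B-type natriuretic peptide, fell by 0.79 at 6 weeks and by 0.91 at 15 weeks in high salt on the log2 scale (adjusted p = 0.039 and 0.030, limma).

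Among genes of the cGMP branch, Gucy1a1, a subunit of the nitric oxide receptor that also makes cGMP, fell in high salt at 6 weeks (-0.82 ± 0.19) and 15 weeks (-0.93 ± 0.19) and in exercise at 6 weeks (-0.82 ± 0.19). Gucy1b1, its partner subunit, fell in high salt at 6 weeks (-0.91 ± 0.25). Pde2a, a phosphodiesterase that cGMP activates, fell at 15 weeks in high salt (-1.07 ± 0.24). Rgs4, a regulator of G protein signalling that cGMP-dependent kinase acts on, fell by 1.61 on the log2 scale at 15 weeks against control (SE 0.24; adjusted p = 0.00034, limma). Within high salt Rgs4 also fell by 1.57 from 6 to 15 weeks, the 1 listed gene called between those weeks, beside 1.53% of all tested probe sets called as lower. Those 6-week differences share the 6-week controls and their GAPDH ratios.

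**Figure D4:**
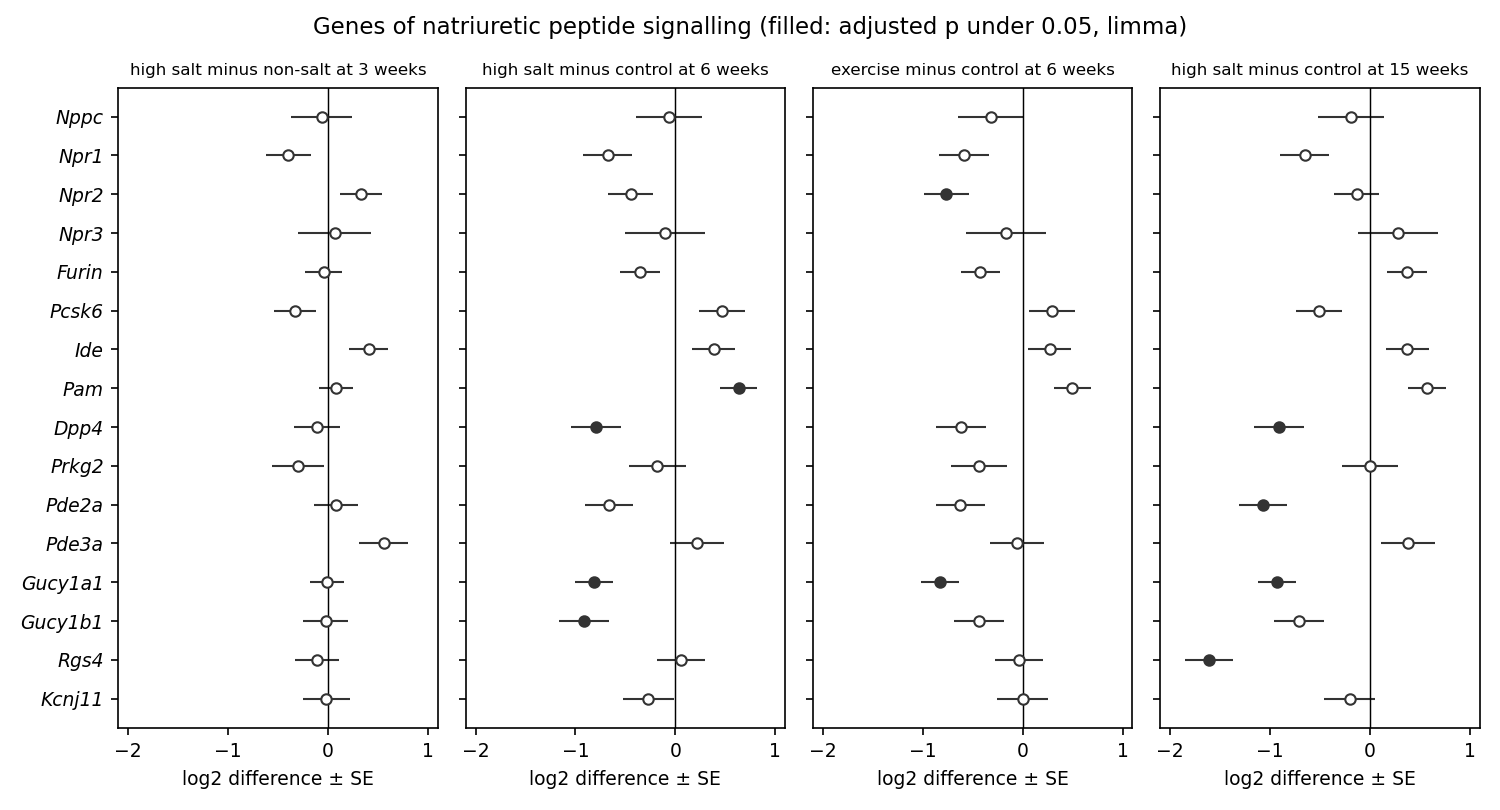
Log2 differences ± SE (horizontal axes) of the 16 tested genes listed for natriuretic peptide signalling in 4 comparisons, each gene at its brightest probe set. Filled points passed an adjusted p under 0.05 in limma. No gene passed in high salt minus non-salt at 3 weeks, and Rgs4 at -1.61 lay lowest in high salt minus control at 15 weeks.

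Transcription factors reported to act on the pair were called at 6 and 15 weeks only. Of 35 listed, 19 were on the array and 18 tested, with no call at 3 weeks in high salt against non-salt (median 0.11, against -0.06 over all tested probe sets). At 6 weeks 3 of the 18 rose in high salt, beside 6.62% of all tested probe sets (median 0.24, against -0.15 over all): Hand2, a basic helix-loop-helix factor of the developing ventricle (2.48 ± 0.30), Junb, a member of AP-1 (0.70 ± 0.22), and Gata4, a GATA factor of myocytes (0.67 ± 0.22). In exercise 1 rose, beside 4.45% of all: Hand2 (2.26 ± 0.30; list median -0.05, against -0.12). Hand2 was at 345 to 618 in high salt, 385 to 461 in exercise and 42.0 to 77.7 in control at 6 weeks, while 3-week non-salt arrays had 444 to 782. At 15 weeks it was at 396 to 647 in high salt and 129 to 417 in control. The 6-week controls were thus the lowest for Hand2, and the 15-week controls came next. At 15 weeks Gata6, another GATA factor, rose by 1.14 ± 0.24, and Nr3c1, the glucocorticoid receptor, fell by 0.81 on the log2 scale, 1 call in each direction beside 3.28% of all called as higher and 3.87% as lower (list median 0.23, against -0.04). Gata4 at 15 weeks differed by 0.05 ± 0.22 (adjusted p = 0.96). Nkx2-5, the homeobox factor of myocytes, was not called in high salt, with -0.23 ± 0.21 at 3 weeks, 0.60 ± 0.23 at 6 weeks and 0.59 ± 0.23 at 15 weeks (adjusted p = 0.88, 0.086 and 0.14, limma).

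Some other genes listed as responding to load were called as higher in high salt at each week. The list held myocyte genes and also matrix genes such as Spp1 and Postn. Of 17 listed, 14 were on the array and 13 tested. At 3 weeks 1 of the 13 rose in high salt, Acta1, beside 0.107% of all tested probe sets (list median 0.10, against -0.06 over all). At 6 weeks 3 rose, beside 6.62% (median 0.51, against -0.15), and at 15 weeks 2 rose, beside 3.28% (median 0.19, against -0.04). None was called in exercise. Acta1 was at 14912 to 16967 in high salt at 3 weeks, against 6983 to 10188 in the non-salt arrays. It was at 16213 to 16661 in high salt at 6 weeks, 7582 to 9580 in exercise and 6985 to 8618 in control. At 15 weeks it was at 13408 to 19009 in high salt, against 5996 to 9151 in control. Acta1 thus rose at all 3 weeks in high salt, by 0.93, 1.07 and 1.07 on the log2 scale. Ankrd1, a stretch-responsive protein of the sarcomere, rose by 0.75 ± 0.20 at 6 weeks and differed by 0.19 ± 0.20 at 15 weeks (adjusted p = 0.017 and 0.70, limma). Atp2a2, the calcium pump of the sarcoplasmic reticulum, rose by 0.65 ± 0.20 at 6 weeks, and Spp1, the matrix protein osteopontin, rose by 2.85 ± 0.44 at 15 weeks.

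Genes with the pattern most like each hormone were picked by Pearson correlation of log2 intensity over the 20 arrays of known group, which share the groups, the array platform and the RNA quality described above. For Nppa these were Maoa (r = 0.88), Hmox1 (0.88), Ptgfr (0.87), Klhl41 (0.87) and Glg1 (0.86). Maoa, a monoamine oxidase of the outer mitochondrial membrane, was at 4173 to 8465 in 15-week high salt, against 1624 to 1857 in 15-week controls, and at 385 to 677 in 6-week controls. Klhl41, a kelch protein of striated muscle, also ranked first by Spearman correlation (rho = 0.91), where Ptgfr ranked 38.5. Over group means the ranks were 50 for Maoa, 90 for Hmox1, 19 for Ptgfr, 3 for Klhl41 and 38 for Glg1. Hmox1 was dim, at 13.5 to 32.9 in 6-week controls. For Nppb they were Lman1 (r = 0.80), Hsp90b1 (0.79), Egln3 (0.76), Gnb5 (0.75) and Junb (0.73). Hsp90b1, a chaperone of the endoplasmic reticulum, was at 1690 to 2474 in 6-week high salt and 823 to 1051 in 6-week controls, and at 1355 to 1567 in 15-week high salt and 1130 to 1466 in 15-week controls. Nppa and Nppb correlated with each other at r = 0.53. The genes above were picked for the highest r, so this value cannot be weighed against theirs.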

How the data were processed

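RNA of left ventricles was measured on an Affymetrix rat array. The authors deposited 1 linear intensity per probe set and array, with software, background step and scaling not given in the sources used here. A 2% trimmed mean was 500.767 to 501.021 on every distinct array, so the intensities were used as deposited. Groups came from titles. Of 24 columns, 2 pairs were identical under labels of different groups, and these arrays were left out of the main fit (20 arrays). The 3-week comparison with non-salt arrays used all 22, with these arrays as a group of their own. Control probe sets (59) were removed, intensities were taken as log2(value + 40), and probe sets below the 25th percentile of mean intensity were not tested, leaving 6555. Fold changes on this scale understate dim probe sets. Group means were fitted with limma 3.58.1 (R 4.3.3; empirical Bayes with intensity trend; 12 residual degrees of freedom, 13 with 22 arrays), and p-values were adjusted by Benjamini-Hochberg over all tested probe sets, with calls under 0.05. The balance of the genes was tested by exact permutation over arrays (scipy 1.17.1). The fit was tested on simulated data. The number of arrays limits the precision.

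The members and gene lists were chosen with earlier results of these data known. Every Nppa and Nppb probe set is named. A listed gene is read at its brightest tested probe set and named where called, up to 6 per comparison. Npr1, Npr2, Npr3, Nppc, Corin, Furin, Gata4, Nkx2-5, Acta1 and Ankrd1 are always named. The 5 most alike genes are named by correlation. Alternatives covered pseudocount, filter, normalization, array weights, trend, GAPDH ratio, replicate block, the readings of the shared arrays, the choice of controls, the probe set and each array left out. Names and positions come from the platform annotation and RefSeq (GRCr8).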

Additional observations from a re-analysis of the deposited data

Results flagged for a closer look

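The high salt effect on Nppb differed between weeks by a test of the difference itself. High salt minus control was 1.91 at 6 weeks and -0.37 at 15 weeks, a difference of -2.285 (SE 0.39; adjusted p = 0.0043, limma), and every high salt array at 6 weeks lay above every control array of that week. Measured from 3 weeks against the non-salt arrays, the difference was -2.05 (SE 0.40; adjusted p = 0.0092, limma), in a comparison added after seeing the data. Both share the 15-week arrays. With the GAPDH covariate the first was -1.68 ± 0.43 and missed the threshold (adjusted p = 0.076, limma). Within high salt Nppb fell by 1.25 on the log2 scale from 6 to 15 weeks, and its -0.79 from 3 to 15 weeks was not called. In the controls it stood 1.03 higher at 15 than at 6 weeks, also not called. Among the 4 non-salt arrays at 3 weeks no array stood apart by the gap test, with a largest gap over range of 0.788 for Nppa at its lead probe set and 0.810 for Nppb, against a critical value of 0.829. Both values lie close to it, and a test on 4 arrays of mixed labels cannot show that they are alike. Groups of 3 were not tested in this way.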

How the results depend on the processing

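Of 552 values recomputed, 479 kept their direction and their side of the threshold. No called difference turned in direction, and 14 uncalled ones did. With the GAPDH covariate, calls were lost for Nppa in high salt minus control (2.06) and exercise minus control (0.82) at 6 weeks, and for Nppb in high salt minus control at 6 weeks (1.11) and in the difference between 15 and 6 weeks (-1.68). Nppb in exercise minus control turned to -0.67 with it, and to -0.52 against the controls of the other weeks, where Nppa was 0.13. Nppa in that comparison was also lost with only the compared groups fitted (1.19) and at X01118_at (1.01), as it was from 6 to 15 weeks in high salt at X01118_at (1.15). From 3 to 15 weeks Nppa passed with the covariate (1.04), array weights (0.89), the compared groups alone (1.004), both shared arrays as controls (1.004), the mean of its probe sets (1.28), E00775cds_s_at (1.53), E00903cds_s_at (1.42) and X01118_at (1.16), and Nppb with weights (-0.69). In high salt minus control at 3 weeks both genes passed with weights (2.03 and 1.76 for Nppa and Nppb), the compared groups alone (2.04 and 1.74), and the shared arrays as controls or all 24 columns (1.91 and 1.58 in each). From 6 to 15 weeks in controls Nppa passed with weights (1.82) and with the shared arrays as controls or all 24 columns (1.22), and Nppb with weights (1.39). Nppb in high salt minus exercise at 6 weeks was lost without the filter or the trend (1.73), with quantile normalization (1.69), and with the shared arrays as exercise (1.73). Uncalled values that turned were Nppa from 3 to 6 weeks in high salt at E00903cds_s_at (0.054) and X01118_at (0.0086), the Nppa difference between 15 and 6 weeks with a pseudocount of 1 (-0.015) and with weights (-0.72), and Nppb in exercise minus control at 3 weeks with the shared arrays as exercise (0.087). The cause was not tested.

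With 1 array left out, Nppa ranged from 1.48 to 1.91 in high salt minus non-salt at 3 weeks, 0.83 to 1.56 in exercise minus control at 6 weeks, 1.17 to 1.31 from 6 to 15 weeks in high salt, 0.86 to 1.60 from 6 to 15 weeks in controls, and -0.37 to 0.36 in the difference between 15 and 6 weeks. Nppb ranged from 1.57 to 1.89 in high salt minus non-salt at 3 weeks, 1.62 to 1.86 in high salt minus exercise, -1.43 to -0.97 from 6 to 15 weeks in high salt, 0.78 to 1.42 in controls, and -0.071 to 0.56 in exercise minus control at 6 weeks. Both genes kept the call in high salt minus control at 6 weeks in 6 of 6 such fits, and Nppa at 15 weeks in 6 of 6 (2.17 to 2.57). The count of called probe sets in high salt minus control at 6 weeks was 940, and 13 with the GAPDH covariate, 22 against the controls of the other weeks and 1807 with array weights. Quantile normalization moved the median of all tested probe sets there to -0.04, against -0.15, and gave 522 higher and 408 lower calls, against 434 and 506.

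Replicate numbers were not used as pairs in the main fit. Over 45 pairs of same-numbered arrays the correlation of deviations from group means was -0.235 to 0.214, and 8 exceeded 0.1. Arrays with different numbers were not compared in this way, so these values cannot exclude a pairing. With a replicate block Nppb in high salt minus exercise was 1.73 (adjusted p = 0.049, limma) and Nppa from 6 to 15 weeks in high salt was 1.23 (adjusted p = 0.033, limma). The block moved the count of calls in high salt minus control at 6 weeks to 887, against 940, and no call of Nppa or Nppb changed under it.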
